A study of Homo sapiens with 16 samples.

Results

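In control UM-UC-3 bladder cancer cells, 2381 stretches of RNA were called as N4-acetylcytidine (ac4C) peaks that had no counterpart after knockdown of NAT10. They were taken from the replicate-round peak list of control cells. A row was included when it consisted of a single block, meaning an uninterrupted stretch with no splice junction, and shared no base on the same strand with any block of the replicate-round NAT10-si list. The 2381 control-only peaks made up 27.5% of the 8662 single-block control peaks and 23.2% of all 10253 control peaks. They lay in 2208 genes. The 4 peak lists of the series together held 28357 peaks. The remaining 6281 single-block control peaks had a base in common with that list and are called both-arm peaks here. The NAT10-si list was longer, with 16753 peaks, and 7439 of its 13121 single-block peaks (56.7%) overlapped no control peak.

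The labels describe 16 samples of UM-UC-3 and T24, both established human bladder cancer cell lines, collected 48 h after transfection with 75 nM siRNA. Analysis was limited to UM-UC-3 cells that received either a control siRNA or an siRNA against NAT10, and both arms carried the same dose and transfection reagent. In acRIP, RNA carrying ac4C is immunoprecipitated with an antibody and sequenced beside input RNA, and 1 peak list was deposited per arm and round. Expression came from 2 RNA-seq libraries per arm, replicates 2 and 3, in FPKM, fragments scaled to gene length and library size. The T24 samples, and RNA-seq replicate 1 of UM-UC-3, were not analysed here.

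NAT10 is the RNA acetyltransferase that writes ac4C. The mark was first known from ribosomal and transfer RNA, where adaptor proteins or small nucleolar RNAs guide the enzyme, and has been reported on messenger RNA, where it has been linked to transcript stability and translation. A peak list is a thresholded readout of antibody enrichment over input, so a peak absent from a list is not a measurement of zero acetylation. The peaks were chosen by the presence of a call in 1 list and its absence in the other, both from the same acRIP contrast. The counts, folds and scores of the control-only peaks are therefore descriptions with no test. With 1 list per arm there is no replicate of either list.

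RefSeq sequence was at hand for the windows around gene starts, and 14 control-only peaks (0.588%) reached into such a window, against 56 both-arm peaks (0.892%) and 141 NAT10-si-only peaks (1.90%). The peaks of KPNA2 (an importin alpha, carrier of nuclear import), SMARCD3 (a subunit of the SWI/SNF chromatin remodeller) and SDF2 (an endoplasmic reticulum protein) are shown because they gave the longest stretches of readable peak sequence. Capitals mark matches to CNNCNNCNN, 3 consecutive triplets that each begin with C. This pattern has been reported around ac4C in messenger RNA. Matches were searched on the strand of the peak only and may overlap each other. Sequences are from RefSeq, GRCh38.p14, written 5′ to 3′ on the strand of the gene.

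KPNA2, chr17:68035519-68035668, plus strand, 216 to 67 bases before the tabled start: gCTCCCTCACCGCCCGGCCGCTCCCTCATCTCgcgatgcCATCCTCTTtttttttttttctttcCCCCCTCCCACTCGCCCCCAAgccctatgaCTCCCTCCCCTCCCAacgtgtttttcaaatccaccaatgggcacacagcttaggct
SMARCD3, chr7:151248695-151248843, minus strand, 149 to 1 bases before the tabled start: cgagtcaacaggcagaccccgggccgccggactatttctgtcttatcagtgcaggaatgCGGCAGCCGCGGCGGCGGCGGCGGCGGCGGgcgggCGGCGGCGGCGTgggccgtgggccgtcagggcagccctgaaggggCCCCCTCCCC
SDF2, chr17:28661951-28662130, minus strand, 224 to 45 bases before the tabled start: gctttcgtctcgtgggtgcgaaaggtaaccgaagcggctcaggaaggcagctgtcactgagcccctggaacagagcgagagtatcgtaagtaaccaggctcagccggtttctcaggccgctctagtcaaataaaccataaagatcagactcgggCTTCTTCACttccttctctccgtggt

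The KPNA2 stretch held 15 matches, the SMARCD3 stretch 12 and the SDF2 stretch 1. Shorter stretches of ACVR2A (63 bases) and FAM78A (37 bases), not shown, held 0 and 1 matches. The KPNA2 matches ran through C-rich tracts, with C making up 44.7% of its bases, and those of SMARCD3 through a CGG repeat and a C-rich tract at its 3′ end. Among 35116 RefSeq promoters, the windows at the same distances from the start held at least 1 match in 82.9%, 84.8% and 86.7% of cases for KPNA2, SMARCD3 and SDF2, with medians of 3, 4 and 4 matches. A match is thus common in such windows and is given as a description of these letters only. The KPNA2 and SDF2 stretches are whole peaks, with authors' folds of 12 and 5.35, and the SMARCD3 stretch is 149 bases of a 180-base peak with a fold of 30.1. The tabled starts are those of 1 transcript, and the SDF2 and SMARCD3 peaks were centred at 1.11% and 74.0% of the outermost gene bounds. These 3 genes differed in level, at means of 107 FPKM for KPNA2, 11.8 for SDF2 and 1.83 for SMARCD3.

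Control-only peaks were shorter and less strongly scored than both-arm peaks. Their median length was 179 bases (range 112 to 451), against 210 bases for both-arm peaks, and together they covered 415 kb. The authors' false discovery rate (FDR) was 0.05 or less for 1250 control-only peaks (52.5%), against 88.4% of both-arm peaks and 62.8% of NAT10-si-only peaks. The median fold enrichment was 24.1 (quartiles 9.03 and 36.1, range 1.43 to 385) for control-only peaks and 26.1 (quartiles 12 and 60.2) for both-arm peaks. The FDR and fold are the authors' own values from the list that the rule used. They describe peaks within that list.

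The folds of control-only peaks took a few repeated values. At 3 significant digits, 1275 of them (53.5%) were whole multiples of 1 step of 12.037, against 26.4% of both-arm peaks. The multiples 1 to 6 alone held 1207 control-only peaks (50.7%) and 1231 both-arm peaks (19.6%). The single most frequent fold, 24.1, was that of 527 control-only peaks. Of these, 416 (17.5% of all control-only peaks) also shared 1 p-value score, a log10 p of -1.91, and an FDR of 0.239, a combination found for 147 both-arm peaks (2.34%). The next combinations were a fold of 36.1 with a log10 p of -2.97 for 198 peaks and a fold of 48.1 with a log10 p of -4.06 for 103 peaks. The NAT10-si list had its own step of 7.02, and 52.1% of the NAT10-si-only peaks were whole multiples of it. The deposited lists give no read counts, so the depth behind each peak is unknown.

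**Figure D1:**
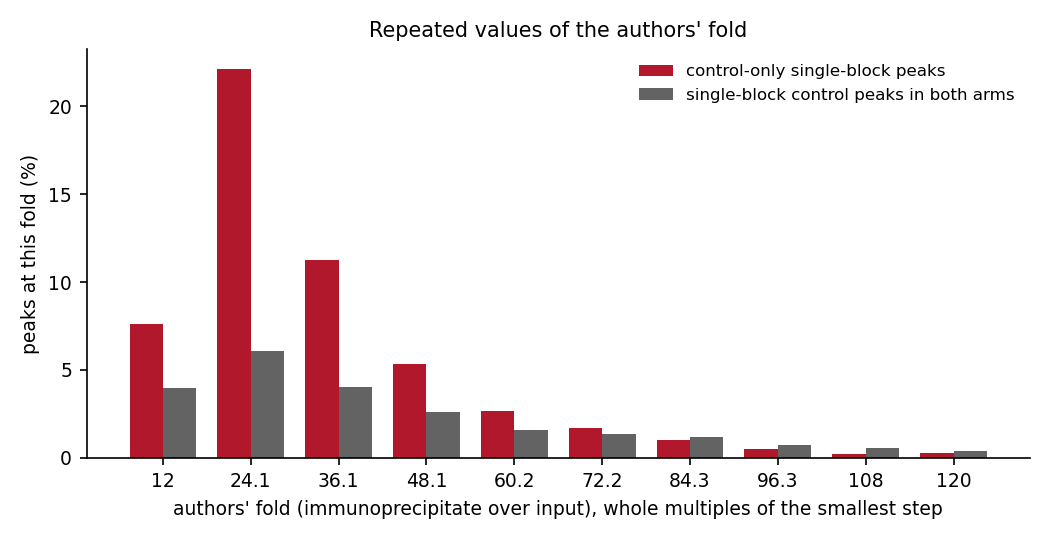
Share of peaks (vertical axis, %) at each whole multiple of a fold step of 12.037 (horizontal axis, the authors' fold), for control-only and both-arm single-block control peaks. The axis title calls this step the smallest, but folds below it also occurred. The 24.1 bar holds 22.1% of control-only peaks and 6.05% of both-arm peaks.

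The peaks with the highest folds at an FDR of 0.05 or less stood far above this range. LRRC47, a leucine-rich repeat protein, had a 210-base peak with a fold of 385 at chr1:3780173-3780382, minus strand. IKBKE, a kinase of innate immune signalling, had a fold of 277 at chr1:206496620-206496829, and FITM2, which acts in lipid droplet formation, a fold of 253 at chr20:44302838-44303047. GSPT2, a translation termination factor, and NOL9, a kinase of ribosomal RNA processing, both had a fold of 193. MIR3677HG, a microRNA host gene, had 181 and SLC7A1, a cationic amino acid transporter, 169. These 7 genes held no peak of any kind in the NAT10-si list. LENG8, with a fold of 306 at chr19:54459821-54460150, was the exception among the 8, since a NAT10-si block lay 119 bases from its peak.

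Expression of these 8 genes was lower after NAT10 siRNA for 6, higher for 1 and below the filter for 1, where 27.9% of all genes tested were lower and 27.9% higher. SLC7A1 read 22.6 and 20.6 FPKM in control libraries against 11.7 and 12 FPKM in NAT10-si libraries, a log2 change of -0.81 ± 0.06 (SE; limma adjusted p = 0.000463). NOL9 was at 3.31 and 3.45 against 1.80 and 1.84 FPKM (log2 -0.63, limma adjusted p = 0.00155), and FITM2 at 7.31 and 7.08 against 4.81 and 4.33 FPKM (log2 -0.56, limma adjusted p = 0.00179). The control libraries of all 3 were above both NAT10-si libraries. LRRC47 was at 12.7 and 12.2 against 8.76 and 9.34 FPKM (log2 -0.42, limma adjusted p = 0.00241). IKBKE and GSPT2 fell by log2 values of 0.42 and 0.35 with limma adjusted p of 0.0294 and 0.0438. The IKBKE call was lost when any 1 library was left out (limma adjusted p between 0.0521 and 0.152), and that of GSPT2 when control replicate 2 or 3 or NAT10-si replicate 2 was dropped (limma adjusted p = 0.203, 0.0753 and 0.133). With replicate number as a block, limma adjusted p was 0.0512 for IKBKE and 0.078 for GSPT2. LENG8 rose, from 58.7 and 55.5 to 79.7 and 78.6 FPKM (log2 0.46, limma adjusted p = 0.000922). MIR3677HG was at 1.03 and 1.67 against 0.431 and 0.514 FPKM and was not tested, because its mean was under 1 FPKM.

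The absence of a NAT10-si block near the peak spanned a wide range of distances. The median gap from a control-only peak to the nearest NAT10-si block on its strand was 11157 bases (quartiles 809 and 102891). A gap under 200 bases was found for 266 peaks (11.2%), under 1000 bases for 647 (27.2%) and under 50 bases for 36. The closest were in RRP36, a factor of ribosomal RNA processing, at 7 bases, ZNRD2 at 17 bases and TSPAN17, a tetraspanin, at 28 bases. Just on the other side of the rule, single-block control peaks in BTF3L4, RHOQ and DNAJC10 shared 1 base with a NAT10-si block and were not included. The rule thus takes in peaks that sit beside a NAT10-si peak as well as peaks far from any.

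At the level of genes, 1087 of the 2208 (49.2%) had no NAT10-si peak of any kind, and these held 1181 of the control-only peaks. The other 1121 genes had a NAT10-si peak elsewhere. A both-arm single-block peak was present in 499 genes (22.6%) and a NAT10-si-only single-block peak in 690 (31.2%). A gene could belong to both sets. One control-only peak was found in 2050 genes, 2 in 144, 3 in 13 and 4 in 1. The gene with 4, the long noncoding RNA LINC00926, had them as 2 pairs of nearly coincident rows around chr15:57306510-57306692 and chr15:57307619-57307769, so they mark 2 places. Over the whole set, 88 control-only peaks overlapped another one on the same strand.

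CNIH1, a cargo receptor of the early secretory pathway, and RAP2B, a small GTPase, each had 3 control-only peaks and no NAT10-si peak. The peaks of CNIH1 had folds of 36.1, 3.76 and 7.74 and those of RAP2B 2.09, 3.05 and 5.47. CNIH1 was at 20.8 and 20.2 FPKM in control and at 18.0 and 18.3 FPKM in NAT10-si libraries, a log2 change of -0.17 ± 0.04 (SE; limma adjusted p = 0.0242). RAP2B was at 7.76 and 8.40 against 9.40 and 9.68 FPKM, a log2 change of 0.22 (limma adjusted p = 0.0277). The CNIH1 call was lost when any 1 library was left out (limma adjusted p between 0.0647 and 0.111), and that of RAP2B when control replicate 2 or NAT10-si replicate 2 or 3 was dropped (limma adjusted p = 0.132, 0.0649 and 0.1). TXNDC17 and SHTN1 also had 3 control-only peaks and had 2 and 5 NAT10-si peaks. Their levels did not pass the test (log2 0.04 and 0.08, limma adjusted p = 0.565 and 0.245).

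The first round of acRIP, which the rule did not use, shared few of these places. The first-round lists were short, with 685 control and 666 NAT10-si peaks, and their arm and round are known only from their names. Of the 2381 control-only peaks, 4 (0.168%) overlapped a first-round control peak and 8 (0.336%) a first-round NAT10-si peak. The same figures for both-arm peaks were 30 and 30 (0.478% each). The 4 were in SEC22C, a protein of vesicle traffic, ABHD11, a mitochondrial hydrolase, CASC3, a core protein of the exon junction complex, and PURA, a nucleic acid binding protein. By gene, 68 of the 2208 (3.08%) had a first-round control peak anywhere and 82 (3.71%) a first-round NAT10-si peak. Among genes of both-arm peaks these shares were 3.99% and 4.53%.

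PURA was at 6.43 and 6.64 FPKM in control and at 5.49 and 4.85 FPKM in NAT10-si libraries (log2 -0.29, limma adjusted p = 0.0200), and it held no NAT10-si peak in the replicate round. The PURA call was lost when control replicate 2 or 3 or NAT10-si replicate 3 was dropped (limma adjusted p = 0.0745, 0.102 and 0.0642). CASC3 rose from 16.8 and 16.6 to 22.5 and 22.1 FPKM (log2 0.40, limma adjusted p = 0.00131). SEC22C and ABHD11 had log2 differences of -0.13 and -0.12 that did not pass the test (limma adjusted p = 0.0789 and 0.135). The 4 genes of the shared places did not move in 1 direction.

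Most control-only peaks lay at the 3′ end of a gene. RefSeq bounds were at hand for the genes of 2190 peaks, of which 2124 (97.0%) lay inside the gene bounds, and their median position was 97.2% of the way from gene start to gene end, introns included. The last 10% of the gene held 1518 peaks (71.5%), the first 10% 37 (1.74%) and the stretch between them 569 (26.8%). Both-arm peaks were placed similarly, with 76.0% in the last 10% and 1.97% in the first. NAT10-si-only peaks had 64.7% in the last 10% and 4.16% in the first. Exon annotation was not used here, so a position is a place along the gene and not an annotation of a coding or untranslated base.

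**Figure D2:**
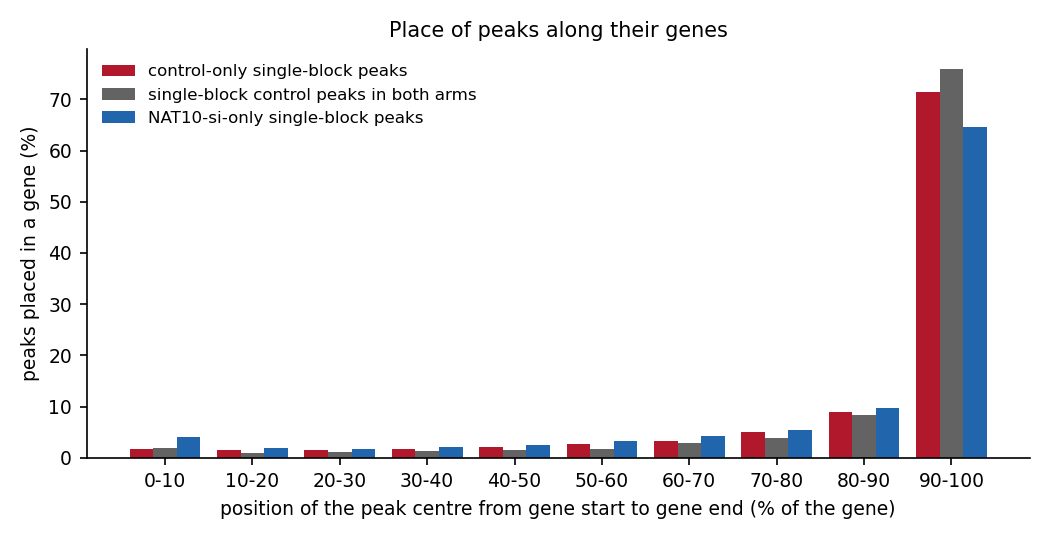
Share of peaks (vertical axis, %) by the position of the peak centre along its gene (horizontal axis, % from gene start to gene end), for 3 classes of single-block peaks. The last 10% holds 71.5% of control-only, 76.0% of both-arm and 64.7% of NAT10-si-only peaks.

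Of 2021 member genes with a RefSeq type, 1820 (90.1%) were protein-coding, 125 (6.19%) long noncoding RNAs, 49 pseudogenes and 25 transcribed pseudogenes. The protein-coding share was 92.3% among genes of both-arm peaks and 89.4% among genes of NAT10-si-only peaks. By chromosome, the control-only share of single-block control peaks ran from 23.1% on chromosomes 11 and 17 to 40.2% on chromosome 4, where 88 of 219 were control-only. None of the 12 single-block control peaks on the mitochondrial genome was control-only.

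RNA-seq was used to ask how the genes of these peaks were expressed when NAT10 was depleted, a readout that the rule did not use. The target was checked first. NAT10 was at 19.0 and 17.6 FPKM in control and at 4.04 and 3.84 FPKM in NAT10-si libraries, a log2 change of -1.97 ± 0.06 (SE; limma adjusted p = 0.000111). NAT10 itself had no control peak and 2 NAT10-si peaks. Changes are given as differences of log2(FPKM + 1), a scale on which low genes appear to change less than they do. Nothing in the labels says that libraries of an arm came from separate cultures, so p-values measure only the spread between these libraries. In bulk RNA, fewer cells of a type and less RNA per cell cannot be told apart. The steps of low values gave relative depths of 2.05 and 1.095 for control replicates 2 and 3 and 1.06 and 1 for NAT10-si replicates 2 and 3.

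All 2208 genes were in the expression table, 1761 passed the filter of a mean of at least 1 FPKM, 447 did not, and 35 were listed at 0 in every library. The filter uses the mean over both arms. Of the 1761 tested genes of control-only peaks, 699 (39.7%) were lower after NAT10 siRNA, against 27.9% of all 14004 genes tested. Higher levels were found for 323 (18.3%), against 27.9% of all genes tested, and the number higher was 207 and 211 without control replicates 2 and 3. In either direction, 1022 passed the test (58.0%), against 55.8% of all. The genes of control-only peaks were thus called about as often as other genes, and the calls were shifted toward lower levels. Their median log2 change was -0.12, and that of all genes tested was 0.01. With no filter on low values the median was -0.074, and 25.2% were lower and 10.8% higher, against 9.28% and 9.66% of all genes. Arms did not overlap for 1501 of them (85.2%), against 80.4% of all.

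The shift was one of many small differences. A call with a log2 change of -1 or below was made for 33 genes (1.87%, against 1.52% of all genes tested) and with a change of 1 or more for 10 (0.568%, against 3.01%). The median level of the tested genes of control-only peaks was 6.67 and 6.70 FPKM in both control libraries, against 6.20 and 6.09 FPKM in the NAT10-si libraries. Over all genes tested, the medians were 6.22 and 6.23 against 6.21 and 6.21 FPKM. Each NAT10-si library taken alone was lower than the control mean by a median log2 of 0.12 among these genes. Both control medians were therefore above both NAT10-si medians, and the shift was of like size in each library.

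Genes that had no NAT10-si peak at all had a lower median change than those with one. Of 735 tested, 306 (41.6%) were lower and 106 (14.4%) higher, with a median log2 change of -0.17. Without control replicates 2 and 3 the number higher was 61 and 53. With no filter on low values, 238 of 1055 were lower and 66 higher and the median was -0.08, close to the -0.07 of all control-only peak genes, of which 548 of 2173 were lower. At 30 FPKM or more, 12 of 26 genes with no NAT10-si peak were lower (46.2%), with a median of -0.09, against 49.5% and -0.14 for all control-only peak genes. Among 1026 tested genes that had a NAT10-si peak elsewhere, 393 (38.3%) were lower and 217 (21.2%) higher, with a median of -0.09. Genes of both-arm peaks had a median near that of all genes tested, at 0.01 over 4905 genes, with 30.03% lower and 33.1% higher. They were called more often than all genes (63.1% against 55.8%), at median control levels of 11.4 and 6.23 FPKM. Genes of NAT10-si-only peaks leaned toward higher levels, with 24.8% lower, 31.8% higher and a median of 0.04 over 4594 genes. A gene may hold peaks of more than 1 class and then counts in each. These are counts from 1 fit over all genes, and the difference between the classes was not tested.

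**Figure D3:**
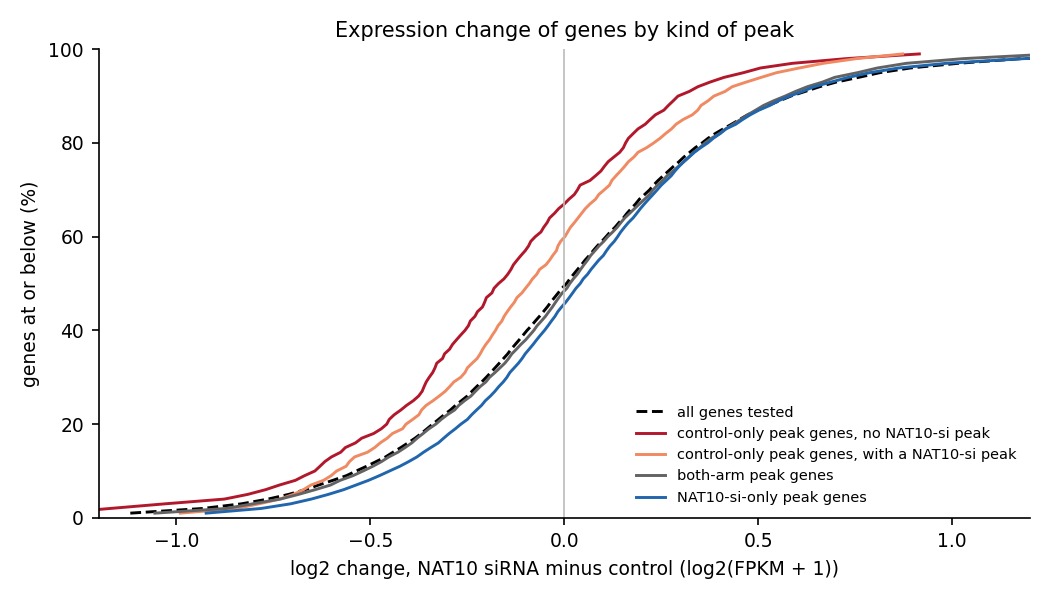
Cumulative share of tested genes (vertical axis, %) at or below each log2 change (horizontal axis, NAT10 siRNA minus control, log2(FPKM + 1)), by kind of peak. The curves of control-only peak genes lie above and left of the dashed curve of all genes, with medians of -0.17 for genes with no NAT10-si peak and -0.09 for genes with one.

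Seen from the peaks, the share of single-block control peaks that were control-only followed the expression change of the gene. It was 36.7% (36 of 98) in genes with a log2 change below -1 and 32.6% between -1 and -0.5. It was 28.8% between -0.25 and 0 and 23% between 0 and 0.25. It was 12.8% between 0.5 and 1 and 7.59% (11 of 145) at 1 or more. In the NAT10-si list the ends had the opposite order, with a NAT10-si-only share of 41.8% below -1 and 63.3% at 1 or more. Over the ranges from -0.25 to 1 that share was nearly flat, from 54.6% to 56.0%. Expression and peak calling were measured in different libraries of the same arms, and the part of RNA level in the presence of a peak was not tested.

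**Figure D4:**
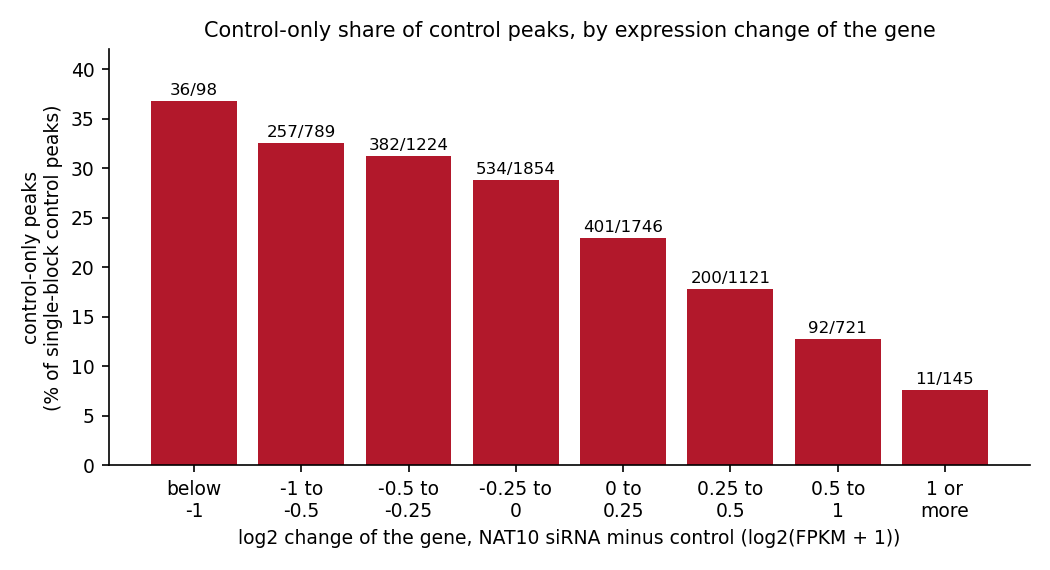
Control-only share of single-block control peaks (vertical axis, %) by the log2 change of the gene (horizontal axis, NAT10 siRNA minus control), with control-only and all single-block control peaks written above each bar. The share is 36.7% below -1 and 7.59% at 1 or more.

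The control-only share also depended on the level of the gene. It was 48.5% for peaks in genes with a mean under 1 FPKM, 41.5% between 1 and 3, 31.3% between 3 and 10, 20.3% between 10 and 30, 9.77% between 30 and 100 and 4% at 100 FPKM or more. The relation to the change was present within each range of levels. Between 1 and 3 FPKM the share was 51.6% in genes with a log2 change of -1 to -0.5 and 20.0% in genes with a change of 0.5 to 1. Between 3 and 10 FPKM these shares were 37.9% and 17.6%, between 10 and 30 FPKM 32.5% and 10.1%, and at 30 FPKM or more 14.2% and 4.58%.

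The excess of lower genes was likewise found in each range of levels. Of genes with a control-only peak, 88 were lower and 52 higher among 387 at 1 to 3 FPKM, where all genes gave 546 lower and 933 higher of 3808. At 3 to 10 FPKM the counts were 320 lower and 156 higher of 795, against 1594 and 1437 of 5279 genes. At 10 to 30 FPKM they were 236 and 86 of 468, against 1232 and 998 of 3381. At 30 FPKM or more they were 55 and 29 of 111, against 539 and 536 of 1536.

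The shift was larger for better scored peaks, a difference that was not tested. Genes with a control-only peak at an FDR of 0.05 or less were lower in 43.9% and higher in 17.3% of 1069 cases, and those with a peak above that FDR in 34.6% and 19.4% of 761. Their median log2 changes were -0.14 and -0.10, at median control levels of 8.43 and 4.94 FPKM. Genes of peaks at the most frequent fold and p were lower in 32.0% and higher in 18.7% of 219 cases. Their median log2 change was -0.07 and their median control level 3.44 FPKM. By place, 42.5% of genes with a control-only peak in the last 10% were lower, and 34.4% of those with a peak before it. The medians were -0.14 and -0.07, at median control levels of 7.33 and 5.62 FPKM. Genes whose control-only peak lay under 200 bases from a NAT10-si block were lower in 37.6% and higher in 21.2% of 245 cases. Over all genes tested, 38.8% passed the test at 1 to 3 FPKM and 66.0% at 10 to 30 FPKM. Shares of groups at unlike levels are thus not directly comparable.

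The 6 largest decreases among genes with no NAT10-si peak were in NCOA5, PRMT6, KIF11, ZWINT, LMNB1 and ENSG00000261061. NCOA5, a nuclear receptor coactivator, was at 13.8 and 12.6 FPKM in control and at 2.28 and 1.86 FPKM in NAT10-si libraries, a log2 change of -2.21 ± 0.09 (SE; limma adjusted p = 0.000148). Its control-only peak, at chr20:46061402-46061581 on the minus strand, had a fold of 6.02. PRMT6, a histone arginine methyltransferase, was at 13.5 and 13.6 against 3.81 and 4.32 FPKM (log2 -1.52 ± 0.07, SE; limma adjusted p = 0.000167), with a peak of fold 24.1 at chr1:107059056-107059235. KIF11, the motor that separates spindle poles, was at 34.4 and 35.7 against 11.8 and 11.4 FPKM (log2 -1.52 ± 0.05, SE; limma adjusted p = 0.000111), with a peak of fold 5.73 at chr10:92655035-92655215. In each of these 3 genes the lower control library was more than 2 times the higher NAT10-si library.

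ZWINT, a kinetochore protein, was at 28.2 and 28.3 FPKM in control and 9.10 and 10.2 FPKM in NAT10-si libraries, a log2 change of -1.46 (limma adjusted p = 0.000167). Its peak, at chr10:56357377-56357674 on the minus strand, had a fold of 96.3, and no NAT10-si block lay near it on that strand. LMNB1, which encodes lamin B of the nuclear envelope, was at 46.5 and 49.0 against 18.8 and 18.0 FPKM (log2 -1.33, limma adjusted p = 0.000139), with a fold of 10.5. The gene ENSG00000261061, which has no symbol, was at 6.22 and 7.49 against 1.55 and 2.42 FPKM (log2 -1.41, limma adjusted p = 0.00155). The peaks of NCOA5, PRMT6, KIF11, ZWINT and LMNB1 were all centred in the last 10% of the gene, between 92.6% and 99.9% of its length.

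The absence of any NAT10-si peak did not always go with a lower level. ARRDC4, an alpha-arrestin, was at 2.38 and 2.28 FPKM in control and at 16.2 and 15.6 FPKM in NAT10-si libraries, a log2 change of 2.34 ± 0.05 (SE; limma adjusted p = 5.99e-05). SPRY2, a feedback inhibitor of receptor tyrosine kinase signalling, was at 22.7 and 23.2 against 84.7 and 85.1 FPKM (log2 1.84 ± 0.04, SE; limma adjusted p = 5.58e-05). Their control-only peaks had folds of 12 and 18.1 with FDR of 0.239 and 0.167, both above 0.05. Among the decreases above, the peaks of PRMT6 and ENSG00000261061 also had an FDR of 0.239. Those of NCOA5, KIF11, ZWINT and LMNB1 were at 0.05 or less. HOOK2, a linker of cargo to microtubules, was at 2.26 and 2.01 against 6.18 and 5.96 FPKM (log2 1.17, limma adjusted p = 0.000314). Its peak had a fold of 21.1 and an FDR of 3.63e-05. ELL2, a transcription elongation factor, was at 5.11 and 5.07 against 9.88 and 10.1 FPKM (log2 0.85, limma adjusted p = 0.000304). ENSG00000254340, with no symbol, was at 4.24 and 3.22 against 10.6 and 11.6 FPKM (log2 1.36, limma adjusted p = 0.00067). The peaks of ELL2 and ENSG00000254340 had FDR of 0.239 and 0.0851.

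IGHA1, the constant region of the immunoglobulin A heavy chain, had the largest fitted increase and is uncertain. It was at 0.154 and 0 FPKM in control and at 18.9 and 4.17 FPKM in NAT10-si libraries (log2 3.24 ± 0.61, SE; limma adjusted p = 0.00796). The NAT10-si libraries differed several-fold, the call was lost when every gene above 0 was tested (limma adjusted p = 0.0565), and reads of near-identical immunoglobulin genes could be split between copies. Its control-only peak lay in the arm where the gene was at or near 0. The summed level of 8 plasma cell markers was 59.2 and 56.5 FPKM in control and 90.4 and 45.3 FPKM in NAT10-si libraries, and PTPRC, CD3D and MS4A1, which mark immune cells, were listed at 0 in all libraries. The part of such RNA in this gene was not tested.

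**Figure D5:**
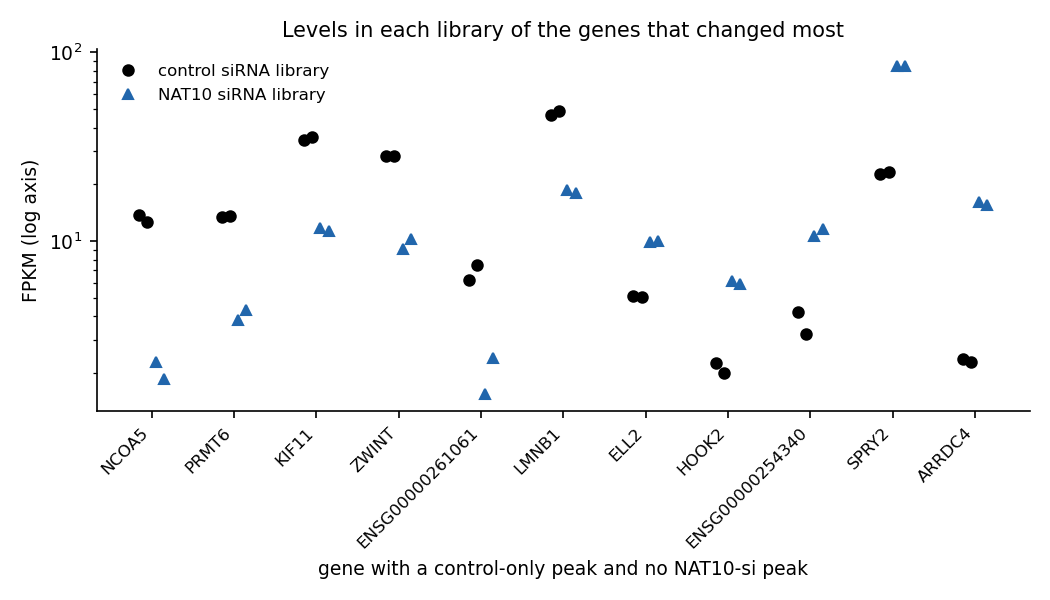
Level in each library (vertical axis, FPKM, log scale) of 11 genes (horizontal axis), those with the largest changes among genes that had a control-only peak and no NAT10-si peak. Circles are the 2 control and triangles the 2 NAT10-si libraries. Arms that do not overlap were a condition of the choice, met by 80.4% of all genes tested. IGHA1 is left out because 1 of its values is 0.

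The gene groups followed here were written with earlier results of these data known, and their counts are descriptions. Of all 14004 genes tested, 12.6% had a control-only peak. Genes of DNA replication had one in 9 of 39 tested (23.1%), and all 9 fell: CDC6, GINS2, GINS3, MCM6, ORC1, ORC2, ORC5, RRM2 and TYMS. In the whole list 36 of 39 fell and none rose, so the 9 followed their group. TYMS, the thymidylate synthase, was at 94.3 and 98.5 FPKM in control and at 29.4 and 30.2 FPKM in NAT10-si libraries (log2 -1.66 ± 0.04, SE; limma adjusted p = 8.09e-05). MCM6, a subunit of the replicative helicase, was at 27.3 and 28.3 against 13.8 and 13.7 FPKM (log2 -0.97, limma adjusted p = 0.000185). Its peak, at chr2:135840431-135840640 on the minus strand, had a fold of 54.2 and was the only peak of the gene in either list. The licensing factors CDC6 and ORC1 had log2 changes of -1.35 and -1.13, and GINS2, of the helicase complex, one of -1.14. RRM2, a subunit of ribonucleotide reductase, fell from 25 and 27.7 to 15.9 and 14.9 FPKM. Its peak was centred at 9.48% of the outermost gene bounds. Bounds of single transcripts were not used, so its place within a transcript is not known from this value.

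In mitosis, 5 of 34 tested genes had a control-only peak and all 5 fell, as did all 34. They were KIF11, BIRC5, CDK1, CENPE and CDC25C. BIRC5, the chromosomal passenger survivin, was at 36.4 and 38.6 against 17.4 and 20.1 FPKM (log2 -0.97, limma adjusted p = 0.000602). CDK1, the mitotic kinase, was at 33.3 and 35.6 against 28.4 and 29.6 FPKM (log2 -0.24, limma adjusted p = 0.0129). The CDK1 call was lost when control replicate 3 or NAT10-si replicate 2 was dropped (limma adjusted p = 0.065 and 0.0574). Its decrease was the smallest of the 5, and CENPE and CDC25C had log2 changes of -0.70 and -0.68.

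Among repair genes, nucleotide excision repair, which removes bulky lesions, had a control-only peak in 8 of 23 tested genes (34.8%). They were CETN2, DDB1, LIG1, RAD23B, RPA1, RPA2, RPA3 and XAB2, and 5 fell, 1 rose and 2 did not pass the test, where 12 of the 23 fell and 2 rose. RPA1, the large subunit of the single-strand binding protein RPA, was at 39.3 and 39.0 FPKM in control and at 19.1 and 19.8 FPKM in NAT10-si libraries (log2 -0.97 ± 0.04, SE; limma adjusted p = 0.000168). Its 300-base peak at chr17:1897724-1898023 had a fold of 50.6. The smaller subunit RPA2 had a log2 change of -0.64, and RPA3, the smallest, did not pass the test, with a log2 difference of -0.15. All 3 RPA subunits thus had a control-only peak near the 3′ end, at 96.8%, 99.4% and 99.4% of the gene. CETN2, a centrin of the lesion recognition complex, rose from 21.2 and 21.8 to 23.9 and 25.9 FPKM (log2 0.20, limma adjusted p = 0.0278), with a peak of fold 49.9. Dropping control replicate 2 or 3 or NAT10-si replicate 3 lost the CETN2 call (limma adjusted p = 0.117, 0.0748 and 0.11). DDB1 and RAD23B, both of damage recognition, had log2 changes of -0.38 and -0.32.

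The other repair lists had fewer. In homologous recombination and the Fanconi anemia pathway, 4 of 38 tested genes had a control-only peak, BRCA2, FANCF, PALB2 and XRCC3, and 3 fell, where 32 of the 38 fell and 1 rose. XRCC3, of strand exchange, was at 8.23 and 8.43 against 6.01 and 5.97 FPKM (log2 -0.42, limma adjusted p = 0.00199), and FANCF had a log2 difference of -0.12 (limma adjusted p = 0.271). In base excision and mismatch repair, 5 of 27 tested genes had one, and 3 of the 5 fell, where 16 of the 27 fell and 4 rose. NEIL2, a DNA glycosylase, was at 9.29 and 10.1 against 7.75 and 8.04 FPKM (log2 -0.27, limma adjusted p = 0.0158). Its call was lost when control replicate 3 or NAT10-si replicate 2 was dropped (limma adjusted p = 0.0849 and 0.0638). In end joining and damage signalling they were CHEK1, MDC1, RAD17, RNF168, RNF8 and TOPBP1, of 31 tested, with 3 lower and 1 higher, where 17 of the 31 fell and 4 rose. RNF168, a ubiquitin ligase at breaks, was the higher one, at 7.44 and 8.47 against 13.6 and 13.5 FPKM (log2 0.70, limma adjusted p = 0.00101). TOPBP1, an activator of ATR, fell by 0.65 and MDC1, a scaffold at breaks, by 0.59.

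Ribosome biogenesis genes had a control-only peak in 7 of 47 tested, and all 7 fell: LTV1, NIP7, NOL9, PES1, POLR1A, UTP20 and UTP4. In the whole list 41 fell and 1 rose. POLR1A, the largest subunit of RNA polymerase I, had 2 control-only peaks and no NAT10-si peak, and was at 19.3 and 17.4 against 8.15 and 7.02 FPKM (log2 -1.17, limma adjusted p = 0.000473). PES1, of large subunit maturation, was at 33.0 and 31.9 against 17.6 and 17.6 FPKM (log2 -0.85, limma adjusted p = 0.00022). Genes of cytosolic ribosomal proteins, by contrast, had control-only peaks in 7 of 81 tested, and 5 rose and 1 fell. All 7 had a NAT10-si peak. RPS20 was at 158 and 170 against 195 and 195 FPKM (log2 0.25, limma adjusted p = 0.00845), and RPL30 at 118 and 122 against 146 and 151 FPKM (log2 0.31, limma adjusted p = 0.00254). The RPS20 call was lost without control replicate 2 (limma adjusted p = 0.051). Ribosomal protein genes have many processed copies, so their values are uncertain. In the whole list 41 rose and 8 fell.

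Genes of splicing and RNA modification were mostly lower. All 7 SR and hnRNP genes with a control-only peak fell, of 39 tested, where 27 fell and 2 rose. HNRNPC was at 75.3 and 78.9 against 56.3 and 56.9 FPKM (log2 -0.44, limma adjusted p = 0.00095), HNRNPU and HNRNPUL1 fell by 0.56 and 0.55, and SRSF7, with 2 control-only peaks, had a log2 change of -0.75. HNRNPA1L2, also in this count, is a near copy of HNRNPA1 and is uncertain. Among genes of ac4C and other RNA modifications, METTL16, NSUN5, PUS1, TRMT61A, WTAP, YTHDF3 and ZC3H13 had a control-only peak, of 33 tested, and 4 fell and none rose, where 20 of the 33 fell and 2 rose. ZC3H13, of the m6A writer complex, was at 16.4 and 16.3 against 11.7 and 10.9 FPKM (log2 -0.49, limma adjusted p = 0.00138). Its partner WTAP had a log2 difference of 0.01 (limma adjusted p = 0.91) and the m6A reader YTHDF3 one of 0.03 (limma adjusted p = 0.573). YTHDF3 had no NAT10-si peak, and its control-only peak had a fold of 16.3.

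In lists where most members rose, control-only peaks were in 3 genes at most per list of those described next. Among stress response genes, 23 of 30 rose, and ATF6 and EDEM1 had a control-only peak, where ATF6 fell by a log2 of 0.18 and EDEM1 did not pass the test (log2 0.10, limma adjusted p = 0.19). The call of ATF6 was lost when any 1 library was left out (limma adjusted p between 0.0746 and 0.139). Of 19 NF-kB targets, 15 rose, and NFKB1 alone had a control-only peak and fell, from 8.02 and 7.90 to 4.89 and 5.17 FPKM (log2 -0.57, limma adjusted p = 0.000975). Of 26 interferon-stimulated genes, 3 had one, and 2 of the 3 rose, where 16 of the 26 rose and 3 fell. OASL, of the oligoadenylate synthetase family, rose from 12.5 and 11.5 to 17.5 and 17.2 FPKM (log2 0.50, limma adjusted p = 0.00149), and its control-only peak had a fold of 6.02. No histone gene of 29 tested had a control-only peak, where 27 rose and none fell, and only 4 genes of that list had any control peak. No mitochondrially encoded gene of 23 tested had one either. In that list 13 fell and 5 rose, and 10 genes had a control peak.

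Families and complexes of other kinds were counted in the same way. Zinc finger genes with a ZNF name had a control-only peak in 45 of 290 tested, with 11 lower and 6 higher (78 and 46 in the whole list), and solute carriers in 27 of 170, with 10 lower and 9 higher (53 and 45 in the whole list). SLC3A2, the heavy chain of amino acid exchangers, rose from 36.6 and 35.7 to 59.9 and 62.1 FPKM (log2 0.74, limma adjusted p = 0.000273), and SLC1A5, a glutamine transporter, fell from 81.5 and 80.5 to 62.3 and 64.1 FPKM (log2 -0.35, limma adjusted p = 0.00138). Proteasome genes had one in 7 of 44 tested, with 4 lower and none higher, where 27 of the 44 fell and 3 rose. Genes of mitochondrial ribosomal proteins had one in 8 of 74, with 5 lower and 1 higher (32 and 6 in the whole list), and translation factors in 11 of 75, with 4 lower and 1 higher (32 and 7 in the whole list). Oxidative phosphorylation genes had one in 4 of 77 (5.19%), with 3 higher and none lower, where 31 of the 77 rose and 7 fell. Long noncoding RNAs, recognised by name, had one in 58 of 845 tested (6.86%), with 18 lower and 10 higher, where 164 of the 845 fell and 263 rose. Many of these are antisense genes, and it is not given whether the counting used strand.

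In the remaining lists, extracellular matrix genes with a control-only peak were CCN2, COL4A1 and LAMC1, of 24 tested, and 2 rose, where 21 of the 24 rose and none fell. CCN2, a matricellular protein, had a peak of fold 108 and no NAT10-si peak, and was at 49.8 and 49.1 FPKM in control and at 49.4 and 49.6 FPKM in NAT10-si libraries, where the arms overlapped. BCL9, a Wnt coactivator, rose from 4.96 and 4.74 to 7.06 and 6.15 FPKM (log2 0.38, limma adjusted p = 0.0109), a call lost without control replicate 3 (limma adjusted p = 0.0629). FOSL2, of the AP-1 family, fell by 0.14 (limma adjusted p = 0.04), a call lost when any 1 library was left out (limma adjusted p between 0.0748 and 0.166). SCARNA9 was the single small nucleolar or Cajal body RNA, and its level was too low to be tested.

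The genes of highest level with a control-only peak were EEF1A1, ERRFI1, RPS20, ACTN4 and RPL30, and all had a NAT10-si peak. EEF1A1, the elongation factor that brings transfer RNA to the ribosome, was at 1916 and 1949 FPKM in control and at 1917 and 2010 FPKM in NAT10-si libraries, with arms that overlapped. Its pseudogenes EEF1A1P6 and EEF1A1P12 also had control-only peaks, so all 3 are uncertain. ERRFI1, a feedback inhibitor of the EGF receptor, rose from 216 and 218 to 403 and 400 FPKM (log2 0.89, limma adjusted p = 0.000142). Its control-only peak had a fold of 1.94 and lay 29 bases from a NAT10-si block. ACTN4, an actin crosslinker, did not pass the test (log2 0.04, limma adjusted p = 0.562).

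Markers of the cell line and of other cell types were measured in the same libraries. The summed level of 10 luminal urothelial markers was 117 and 117 FPKM in control and 87.0 and 85.0 FPKM in NAT10-si libraries, with UPK3A listed at 0. Of the 5 luminal markers tested, KRT18 fell and 1 rose, and the median over the 5 was a log2 change of 0.22. The summed level of 6 basal markers was 106 and 106 against 104 and 103 FPKM. KRT18, a luminal keratin with a control-only peak of fold 5.44, was at 85.7 and 85.8 against 53.0 and 53.6 FPKM (log2 -0.68, limma adjusted p = 0.000242). Endothelial markers summed to 17.6 and 18.0 against 26.3 and 27.9 FPKM, fibroblast markers to 10.4 and 9.59 against 11.7 and 13.0, and 9 immune markers to 1.17 and 1.07 against 4.05 and 4.23. Apart from KRT18 and IGHA1, none of these markers had a control-only peak.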

How the data were processed

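Expression was measured by RNA-seq and ac4C by acRIP in UM-UC-3 cells. The deposited expression table has no unit in its header and was read as FPKM, with columns that sum to between 310508 and 319224. The peak lists hold, per the file headers, the authors' fold (a ratio, read as immunoprecipitate over input), p-value and log10 scores of p and FDR for each peak. In the submitters' processing notes the tools are HISAT2 2.1.0, HTSeq 0.6.1 and bcl2fastq 2.19.1, with the build hg19. For the peak caller, the sources used here give no name. Peak coordinates matched RefSeq GRCh38.p14 instead of hg19: 97.0% of control-only peaks whose gene RefSeq places lay in it, and 50 peaks had a 5′ edge exactly at a RefSeq start when 1 was added to the listed start, against 4 with 0 added. Coordinates are printed from 1.

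An overlap meant 1 or more shared bases on 1 strand. limma-trend (limma 3.58.1, R 4.3.3) was fitted to log2(FPKM + 1) of 14004 genes whose mean reached 1 FPKM in 2 libraries per arm. Benjamini-Hochberg adjustment was at 0.05. A run on simulated data gave every gene the same spread and changed few genes, unlike these data. It therefore does not check the calls made here. Symbols were matched for 57532 of 58302 identifiers. Relative depth came from the most frequent ratio between libraries of genes under 1 FPKM, and the precision of the peak values cannot be given without counts. Members and gene lists were chosen with earlier results of these data known. Named genes were NAT10, the 8 highest folds, members at a first-round control peak, the 6 largest increases and decreases with a mean of at least 3 FPKM, the 5 genes with most members and of highest level, up to 3 genes per list by level, and the peaks nearest to the rule's edge. The increases and decreases were also limited to genes past the test, with no NAT10-si peak and with arms that did not overlap. Further list members are named from the counts. Alternatives covered peak thresholds, overlap, list length, pseudocount, filter, scaling, replicate block and leaving out each library. Some genes that the naming rule takes are not reported here.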

Additional observations from a re-analysis of the deposited data

How the results depend on the processing

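The direction of the shift held under every alternative run, for control-only peaks and for the fit. With both lists kept at an FDR of 0.05 or less, there were 1514 control-only peaks, 73.9% in the last 10%, and a median log2 change of -0.14. With only the control-only peaks kept at that FDR, 1250 peaks remained, 544 of their genes had no NAT10-si peak, 185 genes were higher and the median was -0.14. With NAT10-si blocks widened by 200 bases the median was -0.13. With the NAT10-si list cut by p to the length of the control list, the set grew to 3438 control-only peaks in 3109 genes. Of these genes, 2094 had no NAT10-si peak, and 500 of 2513 tested were higher, with a median of -0.10. Of the 3438 peaks, 7 overlapped a first-round control peak, and 73.4% of those placed in a gene lay in the last 10%. The median was -0.15 with a pseudocount of 0.1 and -0.074 with no filter on low values. Leaving out 1 library at a time gave 488 to 609 lower genes, 207 to 264 higher genes and a median of -0.12 in each case; the fewest higher genes came without control replicate 2 (207) and without control replicate 3 (211). The lone library of an arm is then assumed to vary like the other arm. With replicate number as a block, 644 genes of control-only peaks were lower and 299 higher. The deviations of same-numbered libraries correlated at 0.0125 across genes, so no shared deviation was seen. With 1 difference per arm, this cannot settle whether same-numbered libraries were paired. Over 784 fits of 98 named genes under these alternatives, 82 lost a call, 4 gained one and none reversed. The peak lists give no counts, so what depth allows could not be set for them.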
